A study of Homo sapiens with 2 samples.

Results

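The peaks of chromosome 1 were taken from a single list of regions called in MDA-MB-231, a human breast cancer cell line that is long established. Every region of the list whose chromosome was given as chromosome 1 was kept, which left 676 of 10342 peaks. The study ran chromatin immunoprecipitation and sequencing (ChIP-seq) on wild-type cells with an antibody against brachyury, and compared 1 immunoprecipitated library with 1 input library that had received no antibody. Neither library had a replicate, no treatment or second genotype was included, and the number of reads behind the peaks is unknown. The label of the first library names only the cell line, and it was read as the immunoprecipitated one because the list is named as immunoprecipitation against input.

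Brachyury belongs to the T-box transcription factors. It binds DNA through a conserved domain and is best known for the formation of mesoderm and notochord. A ChIP-seq peak is a stretch of the genome where reads from the immunoprecipitated library exceed those of the input, and it can lie at a promoter, inside a gene or far from any gene. Chromosome 1 is the largest human chromosome. The end of its short arm is known as gene-rich, the middle of the short arm holds long gene-poor stretches, and the start of the long arm is a block of satellite repeats that has no assembled sequence in hg19. Beyond this block lies the region 1q21-q23, with the epidermal differentiation complex, whose genes build the outer layer of the skin, and the S100 family of calcium-binding proteins. These properties are background. Gene content was not measured here, and no peak was assigned to a gene.

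Positions are those of hg19 (GRCh37), the build in the submitters' processing notes, and count from base 1. With the centromere placed at base 125000000, chromosome 1 was divided into 7 segments, and a peak was counted where its midpoint lay. On the short arm, these were the distal short arm (chr1:1-37000000), the middle short arm (chr1:37000001-65000000), the gene-poor segment (chr1:65000001-108000000) and the proximal short arm (chr1:108000001-125000000). On the long arm, they were the pericentromeric segment (chr1:125000001-145000000), the 1q21-q23 segment (chr1:145000001-162000000) and the remaining long arm up to the last peak (chr1:162000001-248644942). Density is the number of peaks per Mb. All intervals are given at a confidence of 95%. They cover counting error alone, as if each peak were independent of its neighbours.

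Peaks were sparse in the distal short arm and dense in the gene-poor segment. The distal short arm held 55 peaks at a density of 1.49 per Mb (Poisson interval 1.12 to 1.93). The gene-poor segment held 203 peaks at 4.72 per Mb (interval 4.09 to 5.42). The 1q21-q23 segment held 43 peaks at 2.53 per Mb (interval 1.83 to 3.41), and the remaining long arm held 218 peaks at 2.52 per Mb (interval 2.19 to 2.87). So the gene-poor segment carried 30.03% of the peaks of the chromosome on 17.3% of its length, while the distal short arm carried 8.14% of the peaks on 14.9% of the length. The intervals of both these segments lay apart from each other and from those of the remaining long arm.

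**Figure D1:**
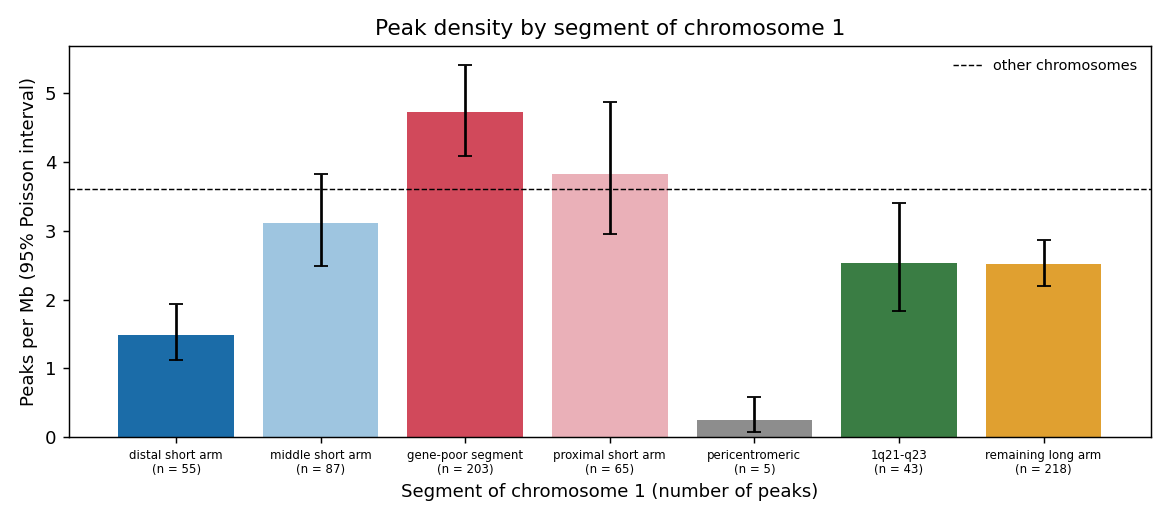
Bars give peaks per Mb in each segment of chromosome 1, with exact 95% Poisson intervals that cover counting error, and the number of peaks under each bar. The dashed line is the density of the other chromosomes, 3.61 per Mb. The gene-poor segment stands highest at 4.72 per Mb, with an interval that overlaps that of the proximal short arm. Apart from the pericentromeric segment the distal short arm stands lowest at 1.49 per Mb.

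The 4 segments named above were compared in 6 pairs, as ratios of density with an exact conditional interval. The gene-poor segment was 3.18 times as dense as the distal short arm (interval 2.35 to 4.36), 1.87 times as dense as the 1q21-q23 segment (interval 1.34 to 2.66) and 1.88 times as dense as the remaining long arm (interval 1.54 to 2.28). The distal short arm was also passed by the 1q21-q23 segment, at a ratio of 1.70 (interval 1.11 to 2.58), and by the remaining long arm, at a ratio of 1.69 (interval 1.25 to 2.32). Between the 1q21-q23 segment and the remaining long arm the ratio was 1.01 (interval 0.707 to 1.40), so a difference within these bounds was not detectable. Without replicates, none of these ratios could be set against the spread between experiments.

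The remaining segments filled in the profile. The middle short arm held 87 peaks at 3.11 per Mb (interval 2.49 to 3.83) and the proximal short arm held 65 peaks at 3.82 per Mb (interval 2.95 to 4.87), although the latter reaches into the centromere. The pericentromeric segment held only 5 peaks, at 0.25 per Mb (interval 0.0812 to 0.583). From 121469171 to 143237501, over 21.8 Mb, no peak was called. This interval takes in the block without assembled sequence described above, where no peak can be called. Its length was kept in the densities of the segments and in the shares of length. The last peak before this interval, chr1:121467604-121469170, scored 59.52, and the first after it, chr1:143237502-143238317, scored 52.94. Measured from the first to the last peak of each arm, the short arm held 410 peaks at 3.38 per Mb and the long arm 266 peaks at 2.52 per Mb, a ratio of 1.34 (interval 1.14 to 1.57).

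Windows of 5 Mb showed how evenly peaks lay inside each segment. In the 7 whole windows of the distal short arm the counts ran from 6 (chr1:25000001-30000000) to 9 (chr1:20000001-25000000), with a median of 7. The window that straddles the boundary, chr1:35000001-40000000, held 15 peaks. In the middle short arm the counts ran from 11 (chr1:45000001-50000000) to 20 (chr1:40000001-45000000), with a median of 15. The lowest of them lay above the highest count of the distal short arm, yet the intervals of single windows are wide, from 4.12 to 17.1 for the count of 9 and from 5.49 to 19.7 for the count of 11.

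The gene-poor segment was itself uneven. Its 8 whole windows held 16 to 34 peaks, with a median of 21.5, the lowest in chr1:90000001-95000000 and the highest in chr1:100000001-105000000. The next window, chr1:105000001-110000000, held 33 peaks and straddles the boundary to the proximal short arm. There the counts were 28, 24 and, next to the centromere, 4 (chr1:120000001-125000000). In chr1:100000001-120000000, limits that were set after the counts had been seen, 119 peaks stood at 5.95 per Mb (interval 4.93 to 7.12). In the part of the gene-poor segment before it, chr1:65000001-100000000, the density was 4.14 per Mb (interval 3.50 to 4.87). The densest part of chromosome 1 thus began inside the gene-poor segment and ran past its end.

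**Figure D2:**
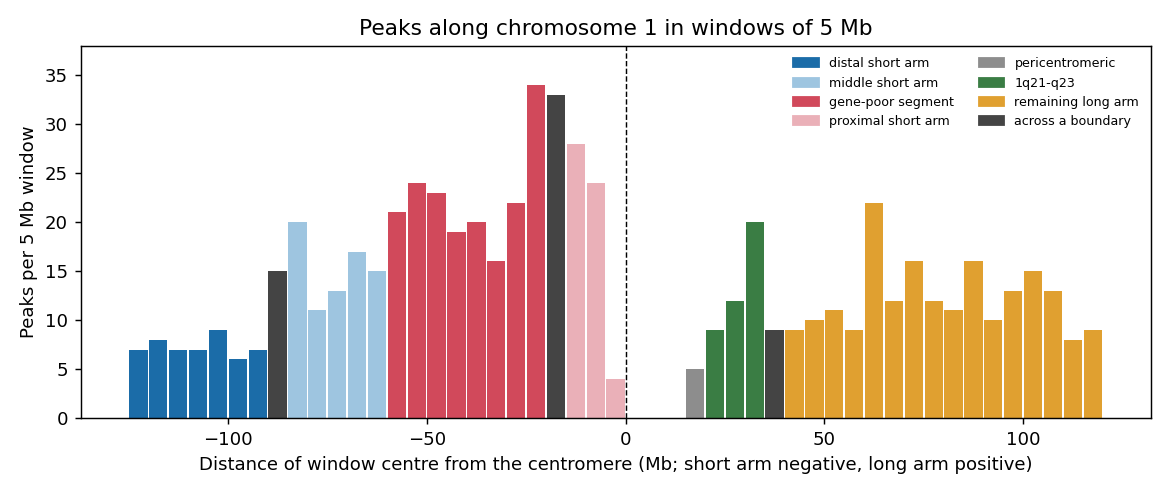
Each bar is the number of peaks in a window of 5 Mb, placed by the distance of its centre from the centromere in Mb, with the short arm to the left and the colour giving the segment. The first 7 windows of the short arm hold 6 to 9 peaks, the fullest window holds 34, and 3 windows right of the centromere hold none.

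Past the pericentromeric segment, the counts on the long arm stayed in a narrower range than those on the short arm. The 3 whole windows of the 1q21-q23 segment held 9, 12 and 20 peaks in the order of their position, the last of them in chr1:155000001-160000000. The 16 whole windows of the remaining long arm held 8 to 22 peaks, with a median of 11.5. The fullest was chr1:185000001-190000000, and its interval of 13.8 to 33.3 included the next highest count, 16. The emptiest was chr1:235000001-240000000.

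In windows of 1 Mb, 7 of 37 windows of the distal short arm (18.9%) held no peak, and the fullest held 4. None of the 43 windows of the gene-poor segment was empty, and the fullest held 10 (chr1:105000001-106000000). In the remaining long arm 6 of 86 windows were empty and the fullest held 7. In the 1q21-q23 segment 2 of 17 were empty and the fullest held 6. The highest count of all, 11 peaks, fell in the proximal short arm (chr1:114000001-115000000).

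The spacing of neighbouring peaks mirrored the density. The median gap from the end of a peak to the start of the next was 437 kb in the distal short arm (54 gaps, order-statistic interval 296 to 643 kb) and 137 kb in the gene-poor segment (202 gaps, interval 111 to 169 kb). It was 269 kb in the 1q21-q23 segment (42 gaps, interval 185 to 421 kb) and 263 kb in the remaining long arm (217 gaps, interval 196 to 347 kb). Gaps of over 1 Mb made up 15 of 54 in the distal short arm (27.8%) but 1 of 202 in the gene-poor segment (0.495%). The 1q21-q23 segment had 4 of 42 such gaps and the remaining long arm 14 of 217. Apart from the centromeric interval, the 2 longest stretches without a peak both lay in the distal short arm. The first, from 9058439 to 12484535, measured 3.43 Mb, and the second, from 27229279 to 30466732, measured 3.24 Mb. The longest in the remaining long arm, from 163691133 to 166298044, measured 2.61 Mb.

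Gaps of under 10 kb numbered 17 of the 675 of the chromosome (2.52%). Their share over the whole list was not counted. They made up 7 of 202 gaps in the gene-poor segment (3.47%), 5 of 217 in the remaining long arm (2.30%) and 2 of 86 in the middle short arm (2.33%). The distal short arm had 1 of 54 (1.85%), the proximal short arm 1 of 64 (1.56%) and the 1q21-q23 segment 1 of 42 (2.38%). The closest pair, chr1:243942490-243943226 and chr1:243943657-243944449, was separated by 430 bp, and its members scored 74.09 and 62.46.

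**Figure D3:**
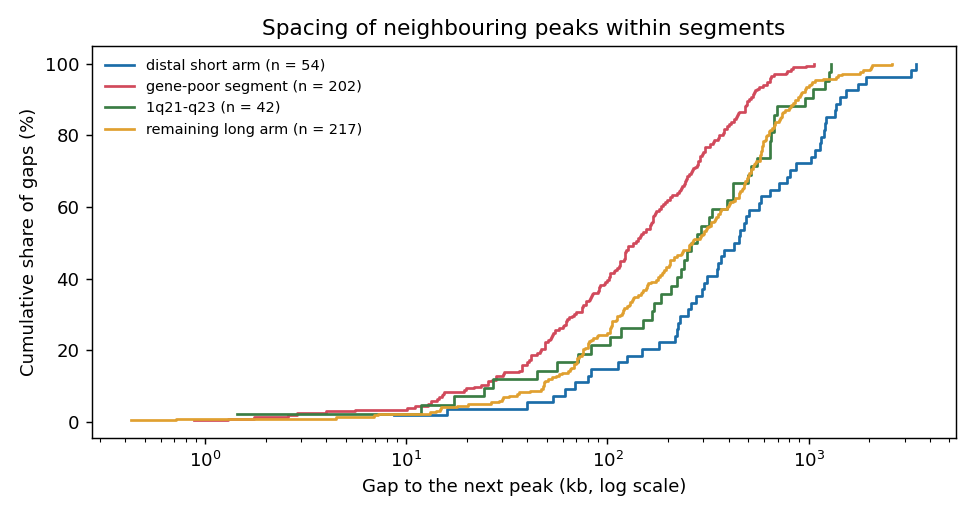
Each line gives the cumulative share, in percent, of gaps to the next peak within a segment, against the gap in kb on a log scale. The line of the gene-poor segment (median 137 kb) lies left of the others, that of the distal short arm (median 437 kb) lies right, and those of the 1q21-q23 segment and the remaining long arm lie close together.

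Median scores overlapped between the segments. The score is -10 x log10 of the p-value that the peak caller gave to each peak, and no peak scored below 50, the limit of the calling. The median score was 59.2 in the distal short arm (interval 55.3 to 63.0), 57.5 in the gene-poor segment (interval 56.2 to 59.8), 60.7 in the 1q21-q23 segment (interval 56.1 to 62.9) and 57.9 in the remaining long arm (interval 56.9 to 60.4). In the middle short arm it was 56.75 (interval 55.66 to 59.61) and in the proximal short arm 60.7 (interval 56.7 to 65.3). These intervals all overlap. The 5 peaks of the pericentromeric segment had a median of 62.03, without an interval. Over the whole chromosome the median was 58.1 (interval 57.3 to 59.4), against 58.8 on the other chromosomes (interval 58.6 to 59.1).

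Scores of 60 or more were held by 299 peaks of chromosome 1 (44.2%), near the 45.7% of the whole list. By segment this share was 49.1% in the distal short arm (27 of 55, Wilson interval 36.4 to 61.9), 42.9% in the gene-poor segment (87 of 203, interval 36.2 to 49.7), 51.2% in the 1q21-q23 segment (22 of 43, interval 36.8 to 65.4) and 43.6% in the remaining long arm (95 of 218, interval 37.2 to 50.2). The lowest share, 36.8%, was found in the middle short arm (32 of 87, interval 27.4 to 47.3). On the short arm as a whole it was 43.7% and on the long arm 45.1%, a difference of 1.45 percentage points (Newcombe interval -6.15 to 9.09).

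Scores of 100 or more were held by 12 peaks of chromosome 1 (1.78%), against 2.92% of the whole list. The difference from the other chromosomes was -1.23 percentage points (Newcombe interval -2.06 to 0.116), which includes 0. The long arm held 7 of these 12 peaks and the short arm 5. The highest score of the chromosome, 131.22, belonged to a peak of 574 bp in the remaining long arm, chr1:166768904-166769477, which was the third peak after the longest stretch without a peak in that segment. In the whole list 28 peaks scored higher.

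The next highest scores were spread over the chromosome. In the gene-poor segment chr1:106956332-106958238 scored 116.62 with a width of 1907 bp, chr1:106056611-106058098 scored 104.97 with 1488 bp, and chr1:83908098-83909067 scored 102.58 with 970 bp. The first peak of the chromosome, chr1:9803-10523, scored 116.24 with 721 bp and was the only peak of the distal short arm to reach 100. It lies at the tip of the short arm, and 806 kb separate it from the next peak. In the 1q21-q23 segment the highest score was 107.67, at chr1:150812507-150813417 with 911 bp.

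In the remaining long arm, chr1:224417944-224419569 scored 114.74 with a width of 1626 bp and chr1:220831983-220832480 scored 106.92 with 498 bp. A score of 103.19 was shared by chr1:162991490-162992007 and chr1:200472827-200473472, of 518 and 646 bp. The highest score of the middle short arm was 101.52, at chr1:58965069-58966916 with 1848 bp. The last peak of the chromosome, chr1:248644125-248644942, scored 101.42 with 818 bp, so that the outermost peak at each end was among the 12. No peak of the proximal short arm or of the pericentromeric segment reached 100, and their highest scores were 91.41 at chr1:114994320-114995332 and 94.85 at chr1:144059634-144061157.

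**Figure D4:**
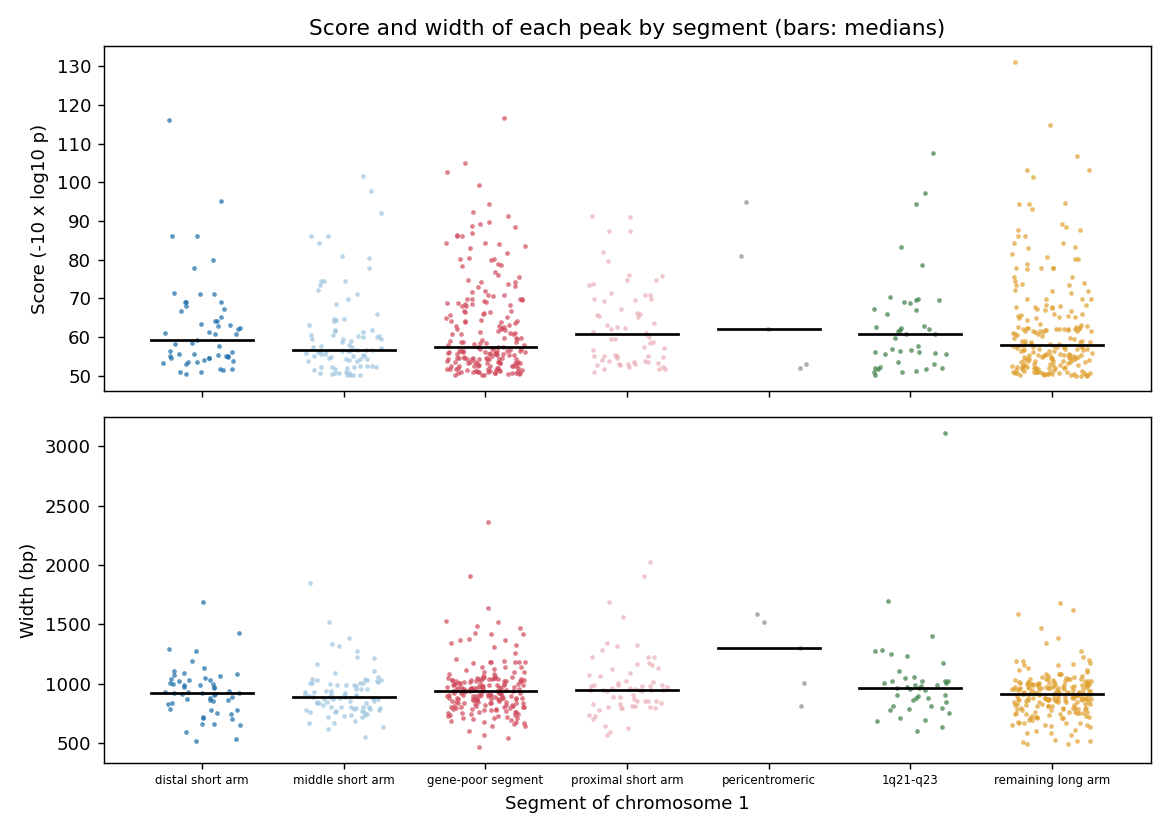
Each point is a peak, with its score (-10 x log10 of the p-value) in the upper panel and its width in bp in the lower panel, by segment, and the horizontal bars are medians. The medians of the 4 compared segments lie between 57.5 and 60.7 in score and between 912.5 and 964 bp in width, while the points of each segment overlap those of the others.

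Median width varied little between the segments, apart from the pericentromeric segment with its 5 peaks. The median was 925 bp in the distal short arm (interval 872 to 994 bp), 942 bp in the gene-poor segment (interval 907 to 962 bp), 964 bp in the 1q21-q23 segment (interval 881 to 1022 bp) and 912.5 bp in the remaining long arm (interval 880 to 931 bp). Their intervals overlap. Over the chromosome the median was 924 bp (interval 910 to 942 bp), below that of 961 bp on the other chromosomes (interval 958 to 966 bp). Among the 23 chromosomes with at least 50 peaks, whose medians ran from 872.5 to 1059 bp, it was the 4th lowest.

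Wide peaks were also fewer than on the other chromosomes as a pool. A width of at least 1500 bp was found in 19 peaks of chromosome 1 (2.81%), against 5.23% of the whole list. The difference from the other chromosomes was -2.59 percentage points (Newcombe interval -3.70 to -0.993). This pooled value does not set chromosome 1 apart, because the share ran from 0 to 21.7% over the 23 chromosomes and chromosome 1 ranked 12th from the lowest. By segment, 5 of 203 peaks were wide in the gene-poor segment (2.46%, Wilson interval 1.06 to 5.64) and 4 of 65 in the proximal short arm (6.15%, interval 2.42 to 14.8). The remaining long arm had 3 of 218 (1.38%, interval 0.469 to 3.97). There were 2 of 87 in the middle short arm (2.30%), 2 of 5 in the pericentromeric segment (40%), 2 of 43 in the 1q21-q23 segment (4.65%) and 1 of 55 in the distal short arm (1.82%).

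The widest peak of the chromosome, chr1:145068873-145071982, measured 3110 bp and scored 51.34. It was the first peak of the 1q21-q23 segment, directly after the 5 peaks of the pericentromeric segment, which had a median width of 1306 bp. The next in width were chr1:98177361-98179722 in the gene-poor segment, with 2362 bp and a score of 88.66, and chr1:111938936-111940961 in the proximal short arm, with 2026 bp and a score of 87.53. They were followed by the peak of 1907 bp with the score of 116.62 described above and by chr1:121376289-121378193, of 1905 bp and a score of 52.91, close to the centromere. Of these 5 widest peaks, those nearest the centromeric interval on either side had scores near the limit, and the others scored well above it. This did not extend to other wide peaks nearer still to the interval. In the pericentromeric segment, peaks of 1524 and 1589 bp scored 94.85 and 81.05, while the last peak before the interval, of 1567 bp, scored 59.52.

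No difference in the share of narrow peaks was detectable. A width under 700 bp was found in 54 peaks of chromosome 1 (7.99%), against 7.94% of the whole list, and the difference from the other chromosomes was 0.0531 percentage points (Newcombe interval -1.84 to 2.40). The share was 10.9% in the distal short arm (6 of 55, Wilson interval 5.10 to 21.8), 5.91% in the gene-poor segment (12 of 203, interval 3.41 to 10.05), 9.30% in the 1q21-q23 segment (4 of 43, interval 3.68 to 21.6) and 10.1% in the remaining long arm (22 of 218, interval 6.76 to 14.8). The long arm exceeded the short arm by 2.95 percentage points (Newcombe interval -1.21 to 7.59), which includes 0. The narrowest peaks were chr1:69114798-69115267 with 470 bp and a score of 83.45, chr1:189119119-189119614 with 496 bp and a score of 93.1, and the peak of 498 bp with the score of 106.92 in the remaining long arm.

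Narrow peaks of chromosome 1 scored higher than those of middle width, as they did on the other chromosomes. The median score was 71.5 in the 54 peaks under 700 bp (interval 65.6 to 77.8), 57.0 in the 603 peaks from 700 to under 1500 bp (interval 56.4 to 58.1) and 80.2 in the 19 peaks of at least 1500 bp (interval 56.3 to 94.5). The first of these intervals lay apart from the second, and the third overlapped the second. Scores of 60 or more were held by 47 of the 54 narrow peaks (87.0%, Wilson interval 75.6 to 93.6) by 239 of the 603 in between (39.6%, interval 35.8 to 43.6) and by 13 of the 19 wide peaks (68.4%, interval 46.0 to 84.6). By this share, the intervals of narrow and of wide peaks both lay above that of the peaks in between. On the other chromosomes the median score was 69.8 in narrow peaks, 57.8 in those in between and 68.3 in wide peaks. There, scores of 60 or more were held by 78.9%, 41.2% and 71.5% of these classes, so the pattern was not particular to chromosome 1. All 4 narrow peaks of chromosome 1 with a score of at least 100 lay on the long arm, which held 26 of the 54 narrow peaks. So few peaks allow no statement about the arms. On the other chromosomes 74 of 767 narrow peaks scored at least 100.

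Compared with the other chromosomes as a pool, chromosome 1 was sparse. Over the span from its first to its last peak it held 2.72 peaks per Mb (interval 2.52 to 2.93), against 3.61 per Mb on the other chromosomes (interval 3.54 to 3.68), a ratio of 0.753 (interval 0.695 to 0.814). It was sparser than chromosomes 2 and 3, the next in length, with ratios of 0.786 (interval 0.709 to 0.871) and 0.536 (interval 0.486 to 0.592). Against chromosomes 17 and 19, which are known as gene-dense, the ratios were 0.736 (interval 0.641 to 0.846) and 1.04 (interval 0.868 to 1.24). Chromosome 1 was not the sparsest, because chromosome 4 held 2.62 peaks per Mb in its first 37 Mb and 2.29 per Mb in the rest. With empty intervals of over 3 Mb left out of all spans, the ratio of chromosome 1 to the pool was 0.773 (interval 0.714 to 0.835). The density of the gene-poor segment alone was 1.31 times that of the other chromosomes (interval 1.13 to 1.502), while that of the distal short arm was 0.412 times (interval 0.310 to 0.536), that of the 1q21-q23 segment 0.7005 times (interval 0.507 to 0.944) and that of the remaining long arm 0.697 times (interval 0.606 to 0.797). Chromosome 3 as a whole stood at 5.07 per Mb (interval 4.76 to 5.39), above the 4.72 per Mb of the gene-poor segment, with overlapping intervals. The pooled ratio therefore does not set this segment apart in the list.

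The distal short arm was then set beside the first 37 Mb of chromosomes 2 to 12, a comparison chosen after the densities had been seen. In these 11 chromosomes the first 37 Mb held 0.459 to 5.84 peaks per Mb, and only chromosome 8, with 17 peaks, lay below the 1.49 per Mb of chromosome 1. The ratio of chromosome 1 to the same stretch of chromosome 2 was 0.367 (interval 0.264 to 0.503), to that of chromosome 3 it was 0.255 (interval 0.186 to 0.344), and to that of chromosome 8 it was 3.24 (interval 1.85 to 5.95). When the first 37 Mb were divided by the rest of their own chromosome, chromosome 1 gave 0.507 (interval 0.377 to 0.668) and the others gave 0.0856 to 2.21, with chromosome 8 again the only one below.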

How the data were processed

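ChIP-seq was analysed in 1 immunoprecipitated and 1 input library of MDA-MB-231 cells. The submitters' processing notes name Bowtie2 2.1.0 and hg19. The authors deposited 1 list of peaks called by MACS (version not given in the sources used here), with a p-value limit of 1e-05 and fold limits of 10 and 30 in its name. The deposited score was taken to be the p-value of the peak on the scale of -10 x log10, because its lowest value was 50. Starts were deposited from base 0 and ends as given, so width is end minus start.

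No test was run, since there is 1 list. Poisson, conditional binomial, Wilson, Newcombe and order-statistic intervals at 95% were computed with scipy 1.17.1, pandas 2.3.3 and numpy 2.4.6 under Python 3.11.15, and the functions for the Poisson, ratio, Wilson and median intervals were checked on simulated lists. The members and segments were chosen with earlier results of these data known. Peaks named are the 10 highest scores, the highest in each segment, the 5 widest, the 3 narrowest, those beside the longest empty interval and the closest pair, and windows named are the fullest and emptiest of each segment. Peaks of scores 101.52 and 101.42, the 2 next longest empty stretches, that of the long arm and the recurring scores were added after values were seen. Depth is unknown. Gene annotation and peak sequence of hg19 were not analysed here.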

Additional observations from a re-analysis of the deposited data

How the results depend on the processing

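Alternatives were run for 42 results, 148 values in all. Of these 135 stayed inside the 95% interval of the reported value and 13 moved outside it. Some of the 135 could not have moved, because the alternative changed nothing in the segment. Merging neighbours under 1 kb left the density of the distal short arm at 1.49 per Mb. Leaving out empty intervals of over 3 Mb left that of the gene-poor segment at 4.72 per Mb. A change of direction could be called only for density ratios whose interval excluded 1, and none of those crossed 1. The ratio of the 1q21-q23 segment to the rest of chromosome 1, 0.926 (interval 0.663 to 1.26), did cross it. It was 1.04 among peaks at or above the median score and 1.02 with boundaries moved 2 Mb towards the long arm end. When the pericentromeric segment was joined to the remaining long arm, the density was 2.09 per Mb and the ratio to the rest of chromosome 1 was 0.655, in place of 2.52 and 0.890. When empty intervals of over 3 Mb were left out, that ratio was 0.734, and the density of the pericentromeric segment was 2.84 per Mb in place of 0.25, with a ratio of 0.924 in place of 0.0852. With boundaries moved 2 Mb towards the short arm end this segment held no peak. Among peaks at or above the median score, the share scoring at least 60 was 91.3% on the short and 93.0% on the long arm and the share scoring at least 100 on the long arm was 5.43%, which follows from the construction, while narrow peaks made up 11.7% and 19.4%. The fullest window held 11 peaks per Mb in windows of 1 Mb, in place of 6.8. The density ratios of the distal short arm (0.507) and the gene-poor segment (2.05) to the rest of chromosome 1 stayed within their intervals in each alternative. The latter ratio was 1.77 with empty intervals of over 3 Mb left out. The gene-poor segment was not the densest in each alternative. With those empty intervals left out, the proximal short arm stood at 4.83 per Mb against 4.72. With boundaries moved 2 Mb towards the short arm end, it stood at 4.65 per Mb against 4.56. No paired analysis was possible because there is 1 list and no replicate. The planned annotation of peaks, with all it needs from a genome in the build of the list, was not run. Unknown depth limits each score and each position.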

Other observations

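Some scores recurred exactly among the peaks of chromosome 1, and of those held by at least 3 peaks some were held by narrow peaks alone. The score 62.13 was held by 7 peaks, 69.82 by 5, 77.79 by 5, 86.02 by 8 and 94.49 by 3. Every one of these 28 peaks was narrower than 700 bp, so that they made up 51.9% of the 54 narrow peaks. In the whole list the same scores were held by 67, 85, 61, 39 and 25 peaks. On the long arm lay 15 of the 28, namely 5, 3, 3, 2 and 2 in the order of the scores. The other scores held by at least 3 peaks, such as 50.81 with 6 peaks, 51.06 with 5 and 62.6 with 3, included no narrow peak. Scores held by fewer peaks were not counted here. These values were noticed in the list and no explanation was tested.

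The 5 peaks between the centromeric interval and the 1q21-q23 segment were few, so that their number allows no firm statement. They measured 816, 1009, 1524, 1589 and 1306 bp in the order of their position, and scored 52.94, 51.9, 94.85, 81.05 and 62.03. Of them 2 were at least 1500 bp wide (40%, Wilson interval 11.8 to 76.9).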
